A study of Mus musculus with 8 samples.

Results

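The genes described here are Eps8l3, a relative of Eps8 that the arrays measured, and 9 genes of the actin and Rac machinery in which Eps8 acts: Sos1, Rac1, Actr3, Pfn1, Actg1, Espn, Vil1, Ezr and Rdx. They were chosen by name, for their known roles and with earlier results of these data known, and are 10 of the 8789 genes named on the arrays, with 19 of 20355 probes. Liver RNA was compared from 4 male Eps8KO mice (Eps8-/-, 17 weeks old) and a pool of WT liver RNA on cDNA arrays with 2 colours. The knockout mice lack Eps8 in every tissue, and were bred from heterozygous parents on a C57BL/6 background. RNA of each Eps8KO mouse was hybridised to 2 arrays, once in Cy5 and once in Cy3, with the WT pool in the other dye, so there were 8 arrays. The WT pool is 1 control sample, for which the labels list 5 animals, while the design gives 4 and the labelling protocol 6, and the spread between WT mice was not measured. Eps8 itself had 0 named probes, so the deletion could not be checked on these arrays. The paper on these mice, citing earlier work, also states that liver does not express Eps8.

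Eps8 caps the fast growing ends of actin filaments and bundles filaments, and in a complex with Abi1 and Sos1 it helps to switch on the small GTPase Rac. Rac in turn drives the WAVE proteins and the Arp2/3 complex, which start new filament branches fed by profilin-bound actin monomers. Bundling proteins and the ERM proteins then shape microvilli, which in liver line the bile canaliculi of hepatocytes and the apical face of bile duct cells.

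None of the 10 genes passed the test for a difference between Eps8KO and WT liver. With limma, 0 of 10 passed a Benjamini-Hochberg adjusted p under 0.05 in either direction, where 0% of all 15455 features tested passed as higher and 0% as lower. At an unadjusted p under 0.05 the count was also 0 of 10, against 5.25% of all features. The smallest adjusted p of the 10 genes was 0.906 and the highest 0.924, while the smallest over all features was 0.119. All values below are log2 ratios of Eps8KO over the WT pool, averaged over the arrays of a mouse and over the probes of a gene. A value of 0 means equal signal in Eps8KO and WT liver, and an SD is the spread over 4 mice unless stated. A ratio on these arrays compares 2 RNAs at 1 probe and gives no level of expression, so the genes are not ranked by abundance. The direction rests on the dyes in the labels and on reading the values as Cy5 over Cy3, which the value table does not state, and all signs would turn if it were the reverse.

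Before the values of single genes, 2 promoters are shown, because Actg1 and Vil1 share a letter pattern that the choice of genes did not use. In the RefSeq sequences of assembly GRCm38.p6, from 250 bases before to 50 after each start site, 9 of the 10 genes had an entry, with 12 promoters. A CArG box, the element that serum response factor binds in many genes of the actin cytoskeleton, was found in the promoters of 2 of the 9 genes. It was present in 2 of the 12 promoters, and in 535 of 32851 promoters of the same length (1.63%). The genes were chosen for actin and Rac roles, so these shares are not a neutral comparison. Both strands were searched, and no other pattern was. Capitals mark the box in each promoter, written 5′ to 3′ on the strand of the gene.
Actg1, chr11:120348446-120348745, minus strand: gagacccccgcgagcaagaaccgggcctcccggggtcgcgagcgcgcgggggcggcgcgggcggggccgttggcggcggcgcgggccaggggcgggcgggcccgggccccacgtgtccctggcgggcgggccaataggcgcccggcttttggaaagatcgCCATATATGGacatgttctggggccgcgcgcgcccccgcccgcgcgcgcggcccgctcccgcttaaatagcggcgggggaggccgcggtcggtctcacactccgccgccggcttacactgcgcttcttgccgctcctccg
Vil1, chr1:74409134-74409433, plus strand: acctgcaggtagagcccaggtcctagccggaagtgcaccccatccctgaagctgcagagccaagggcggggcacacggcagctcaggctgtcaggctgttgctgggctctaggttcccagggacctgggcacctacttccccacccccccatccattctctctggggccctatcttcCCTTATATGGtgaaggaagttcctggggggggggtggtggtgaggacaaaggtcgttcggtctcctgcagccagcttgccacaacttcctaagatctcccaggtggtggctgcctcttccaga
The box of Actg1 (CCATATATGG) lay 90 to 81 bases before the start site, and that of Vil1 (CCTTATATGG) 73 to 64 bases before it. A match of letters describes the sequence alone, and binding was not measured here.

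Eps8l3, which shares the domain plan of Eps8, did not differ from the WT pool beyond the spread between mice. Its log2 ratios were -0.06, 1.33, -0.12 and 0.04 in mice 1 to 4. Mouse 2 stood above the other three, which lay close to 0 on either side. The mean was 0.30 ± 0.69 (SD, n = 4), with a 95% interval from -0.51 to 1.11 (limma, adjusted p = 0.906), which runs from 0.703-fold to 2.15-fold. Without mouse 2 the mean was -0.05, so the direction rested on that mouse. Both probes gave a value on all 8 arrays. Probe 1 gave 3.55 and 1.26 in mouse 2 (Cy5 array first, then Cy3), while probe 2 gave 0.28 and 0.25 in the same mouse. The high value of mouse 2 thus came from 1 of 2 probes, and probe 1 was also the noisier, with a higher spread between arrays of the same dye than 79.8% of all rows. Eps8l2, the other relative on the arrays, had log2 ratios of -0.26, 0.67, -0.68 and 0.74, a mean of 0.12 ± 0.70 (SD, n = 4; limma, adjusted p = 0.950).

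**Figure D1:**
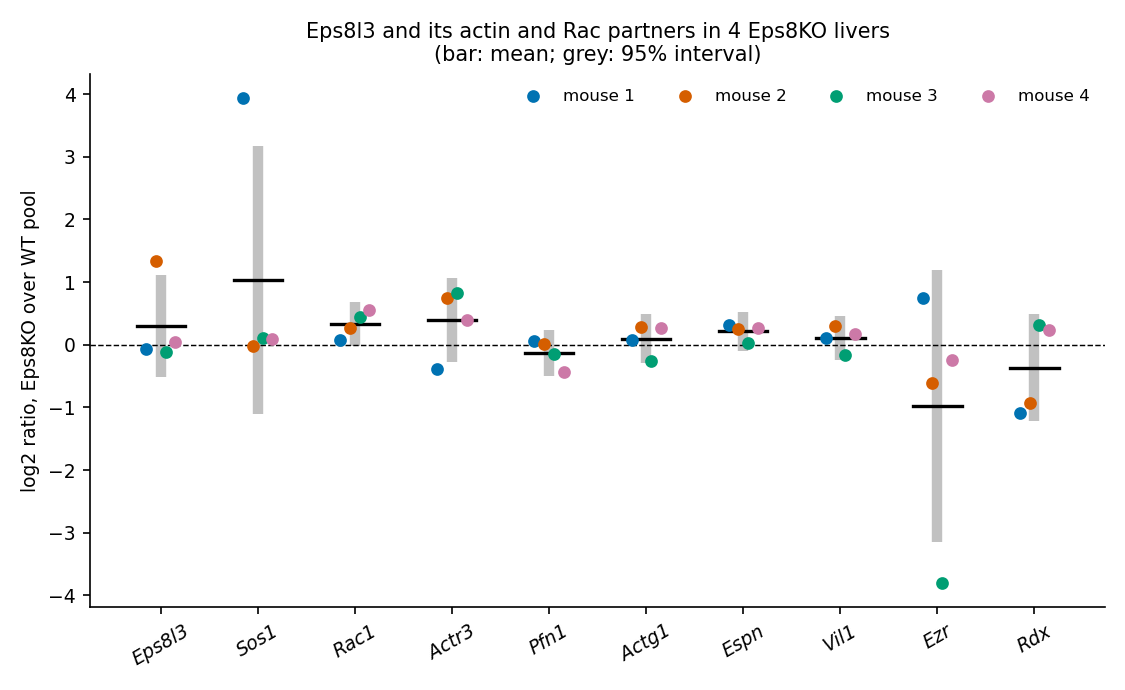
Log2 ratio of Eps8KO over the WT pool (vertical axis) for each of the 10 genes (horizontal axis), with 1 point a mouse, a black bar at the mean and the 95% interval from limma in grey. Mouse 1 of Sos1 (3.94) and mouse 3 of Ezr (-3.80) stand far from the other mice, and the bars of the other 8 genes lie between -0.37 and 0.39.

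The genes that activate Rac gave 1 wide and 1 narrow range. Sos1 encodes the exchange factor that loads Ras, and in the complex with Eps8 and Abi1 also Rac, with GTP. Its single probe gave 3.94, -0.02, 0.11 and 0.09 in mice 1 to 4. Mice 2 to 4 lay near 0, and the value of mouse 1 came from the Cy3 array alone, since the Cy5 array held no value. The mean was 1.03 ± 1.94 (SD, n = 4), with a 95% interval from -1.11 to 3.17 (limma, adjusted p = 0.906). On single arrays the sign followed the dye: with Eps8KO RNA in Cy3 the ratios were 3.94, 2.50, 3.14 and 0.64 in mice 1 to 4, and with Cy5 they were -2.54, -2.92 and -0.45 in mice 2 to 4. The arrays of both dyes did not overlap, and their mean within a mouse was close to 0 in all 3 mice that had both. Over these 3 mice the mean was 0.06 ± 0.07 (SD, n = 3), with a 95% interval from -0.32 to 0.44 (limma, adjusted p = 0.941), or 0.799-fold to 1.36-fold. That SD is small beside the SD of 1.37 between arrays of the same dye for this probe. The interval may therefore be too narrow, and it does not show that Sos1 was unchanged.

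Rac1, the GTPase itself, was above 0 in 4 of 4 mice. Its log2 ratios were 0.08, 0.26, 0.44 and 0.55. The mean was 0.33 ± 0.20 (SD, n = 4), with a 95% interval from -0.02 to 0.69 (limma, unadjusted p = 0.0613, adjusted p = 0.906), at most 1.61-fold. Across the 10 genes, 2 (Rac1 and Espn) were above 0 in all 4 mice, where 7.54% of all features were, and 0 of 10 were below 0 in all 4 mice, where 7.07% were. The probes of Rac1 differed, with means of 0.01 for probe 1 and 0.65 for probe 2. Probe 1 gave 0.01, 0.48, -0.13 and -0.32 in mice 1 to 4, so its sign was mixed, and probe 2 gave 0.15, 0.04, 1.004 and 1.41. The position of mice 3 and 4 above mice 1 and 2 was thus that of probe 2 alone. In a fit with a dye term on all 8 arrays, which took the arrays of a mouse as almost independent (correlation between them -0.00244), Rac1 had the same mean with an unadjusted p of 0.0379 and an adjusted p of 0.706. It was the only one of 8 genes with an unadjusted p under 0.05 in that fit, where 6.63% of 11727 features passed, and 0 of 8 had an adjusted p under 0.05, where 0.298% did.

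Downstream of Rac, Actr3 encodes Arp3, a core subunit of the Arp2/3 complex. Its log2 ratios were -0.39, 0.74, 0.83 and 0.39. Mouse 1 lay below 0 and the others above it. Probe 1 gave -0.64, 0.785, -0.32 and 0.86 in mice 1 to 4, with mouse 4 from the Cy3 array alone. Probe 2 gave -0.15, 0.70, 1.98 and -0.08, so the sign differed between probes in mice 3 and 4. The mean of 0.39 ± 0.56 (SD, n = 4) was within the spread between mice, with a 95% interval from -0.28 to 1.06 (limma, adjusted p = 0.906). The dyes differed strongly for Actr3, with a mean of -1.30 from arrays with Eps8KO RNA in Cy5 and 1.71 from those with Cy3, a difference of -3.01 (limma, adjusted p = 0.0178). With only the mice measured in both dyes by a probe, the mean was 0.28 (95% interval -0.39 to 0.95). Mouse 4 was then at -0.08, which left 2 of 4 mice above 0.

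Pfn1, profilin 1, binds actin monomers and hands them to growing filament ends. It gave 0.06, 0.01, -0.14 and -0.43 in mice 1 to 4. Mice 1 and 2 were at about 0 and mice 3 and 4 below it. The mean was -0.12 ± 0.22 (SD, n = 4), with a 95% interval from -0.49 to 0.24 (limma, adjusted p = 0.908), or 0.711-fold to 1.18-fold. Its dye difference was in the other direction from that of Actr3, 0.55 with Cy5 and -0.80 with Cy3 (difference 1.35, limma, adjusted p = 0.0160). All 8 single-array values of probe 1 followed the dye, from 0.56 to 1.02 with Cy5 and from -1.18 to -0.67 with Cy3, so that the arrays of a mouse nearly cancelled. Of the 8 genes that could be tested for a dye difference, 2 (Actr3 and Pfn1) passed an adjusted p under 0.05, against 14.2% of all features.

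**Figure D2:**
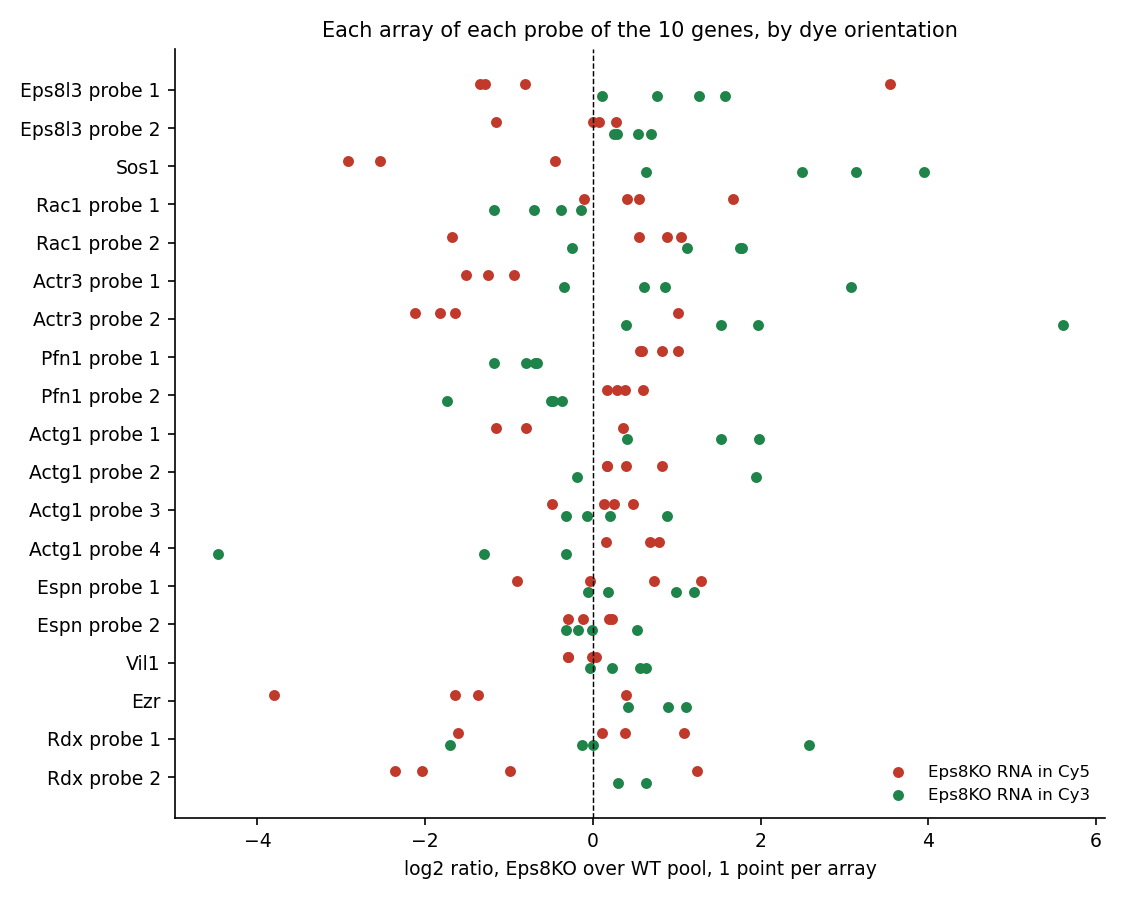
Log2 ratio of Eps8KO over the WT pool, sign turned so that up is Eps8KO (horizontal axis), for each of the 19 probes (vertical axis), with the 4 arrays in which Eps8KO RNA carried Cy5 and the 4 in which it carried Cy3 in separate colours. For 13 of 19 probes the dye means lie on opposite sides of 0, and in Sos1 and both probes of Pfn1, among others, the colours do not overlap.

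Actg1, cytoplasmic gamma-actin and 1 of the monomers from which these filaments are built, had 4 probes, the most of the 10 genes. Its log2 ratios were 0.08, 0.28, -0.25 and 0.27 in mice 1 to 4. Mouse 3 was below 0 and the others above. The mean was 0.09 ± 0.25 (SD, n = 4), with a 95% interval from -0.30 to 0.48 (limma, adjusted p = 0.924). The probe means ran from -0.64 for probe 4 to 0.54 for probe 2. Only probe 3 had a value on all 8 arrays, and its mean was 0.13. Actins are near-identical in sequence, so cDNA of other actin genes may bind these probes, and the value for Actg1 is uncertain to that extent.

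Of the bundlers, espin (Espn) cross-links parallel filaments, and villin (Vil1) bundles them and severs them when calcium rises. Espn gave 0.31, 0.26, 0.02 and 0.27 in mice 1 to 4. All 4 values were above 0, with mouse 3 nearest to it. The mean of 0.21 ± 0.13 (SD, n = 4) had a 95% interval from -0.10 to 0.53 (limma, unadjusted p = 0.135, adjusted p = 0.906), or 0.934-fold to 1.44-fold. Its probe means were 0.42 and 0.0021, so the mean was that of probe 1, and probe 2 gave -0.24 and -0.22 in mice 1 and 2. Vil1 gave 0.11, 0.30, -0.16 and 0.17. Mouse 3 was again the lowest, on the other side of 0. The mean of Vil1 was 0.10 ± 0.20 (SD, n = 4), with a 95% interval from -0.25 to 0.45 (limma, adjusted p = 0.912). Its single probe was among the 3 quietest of the 19, with 10.5% of all rows lower in their spread between arrays of the same dye. The 2 genes with a CArG box thus had intervals from 0.843-fold to 1.37-fold (Vil1) and from 0.814-fold to 1.40-fold (Actg1). With only mice measured in both dyes, that of Actg1 widened to between 0.726-fold and 1.76-fold.

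The ERM proteins ezrin (Ezr) and radixin (Rdx) tie filaments to the cell membrane, and radixin is the main ERM protein at the bile canaliculus of mouse hepatocytes. Ezr gave 0.75, -0.61, -3.80 and -0.24 in mice 1 to 4. Mouse 3 stood far below the others, and its value came from the Cy5 array alone. With Eps8KO RNA in Cy5 the single probe gave 0.39, -1.64, -3.80 and -1.37 in mice 1 to 4. With Cy3 it gave 1.11, 0.42 and 0.89 in mice 1, 2 and 4, so the dyes did not overlap. The mean was -0.97 ± 1.97 (SD, n = 4), with a 95% interval from -3.14 to 1.20 (limma, adjusted p = 0.906). Over the 3 mice with both dyes the mean was -0.03 ± 0.70 (SD, n = 3), with an interval from -0.93 to 0.87 (limma, adjusted p = 0.990). Rdx gave -1.08, -0.93, 0.32 and 0.23. Mice 1 and 2 were low and mice 3 and 4 high, which gave a mean of -0.37 ± 0.74 (SD, n = 4), with an interval from -1.22 to 0.49 (limma, adjusted p = 0.906). Probe 2 of Rdx had 1 array each in mice 1 and 2, both with Cy5, and gave -2.36 and -0.99 there. Its mean was -0.82, against 0.09 for probe 1, which had a value on all 8 arrays. The probes differed in sign in mouse 1 (probe 1 first, 0.19 and -2.36), mouse 3 (1.34 and -0.71) and mouse 4 (-0.31 and 0.77). Over values measured in both dyes, the mean of Rdx was -0.03 ± 0.56 (SD, n = 4), and mouse 2 alone stayed below 0.

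**Figure D3:**
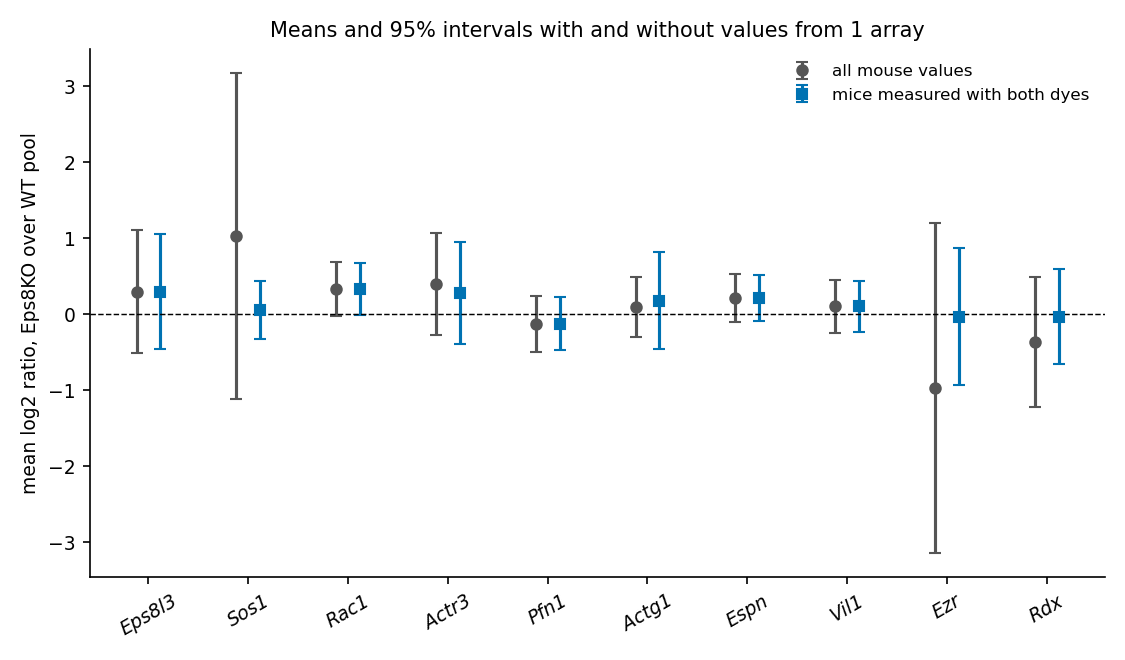
Mean log2 ratio of Eps8KO over the WT pool (vertical axis) of the 10 genes (horizontal axis), from all values (circles) and from mice measured in both dyes (squares), with 95% intervals from limma as bars. Sos1 and Ezr move from 1.03 and -0.97 to 0.06 and -0.03, and all intervals hold 0.

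As a group, the 10 genes had a median log2 ratio of 0.16, against 0.02 for all features. Of the 10, 7 had a mean above 0 (52.8% of all features), which would be 3 of 10 (47.2%) with the ratio read the other way. The side of 0 differed between dyes: with Cy5 arrays alone the median was -0.09 and 4 of 9 genes lay above 0 (36.5% of all features, median -0.14), and with Cy3 arrays alone it was 0.29 and 8 of 9 lay above 0 (67.1%, median 0.20). In 2 genes, Sos1 and Ezr, all values gave a mean past 1.6-fold in size (11.8% of all features). With 1.6-fold and an unadjusted p under 0.05 together, 0 of 10 were called higher and 0 lower, against 1.06% and 1.57%. By mouse, the median of the 10 genes was 0.08, 0.26, -0.05 and 0.20. Mouse 3 was thus the one with a median below 0. The median SD over mice was 0.40 for the 10 genes and 0.43 for all features. These are unlike sets: most of the 10 genes average several probes, while of 15455 features 8214 were named genes and the others single unnamed probes. The 95% interval lay between 0.5-fold and 2-fold for 5 genes (Rac1, Pfn1, Actg1, Espn and Vil1), and for 9, without Eps8l3, when only mice measured in both dyes were used. This second setting was chosen after seeing the data, and it dropped the extreme mouse of Sos1 (mouse 1) and of Ezr (mouse 3), which left n = 3 for each. For Eps8l3 a change of up to 2.07-fold remained within the interval, and p-values above the threshold do not show that these genes were at the same level. Means from mice measured in both dyes lay between -0.12 (Pfn1) and 0.33 (Rac1) in all 10 genes.

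Of 152 possible values of the 19 probes, 141 were present, 0 were at the upper limit of an array and 5 (3.55%) lay at a ratio of small whole numbers, where 4.03% of all values did. Arrays of the same dye differed more for these probes than for most, with a median SD of 1.04 against 0.65 over all rows. Over all features the means of any 2 mice were almost unrelated (r from -0.0287 to 0.0315). The dye means had opposite signs in 13 of 19 probes (68.4%) and in 70.7% of all rows. Of the 19 probes, 10 had a Cy5 mean above 0 and 15 a Cy3 mean above 0.

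**Figure D4:**
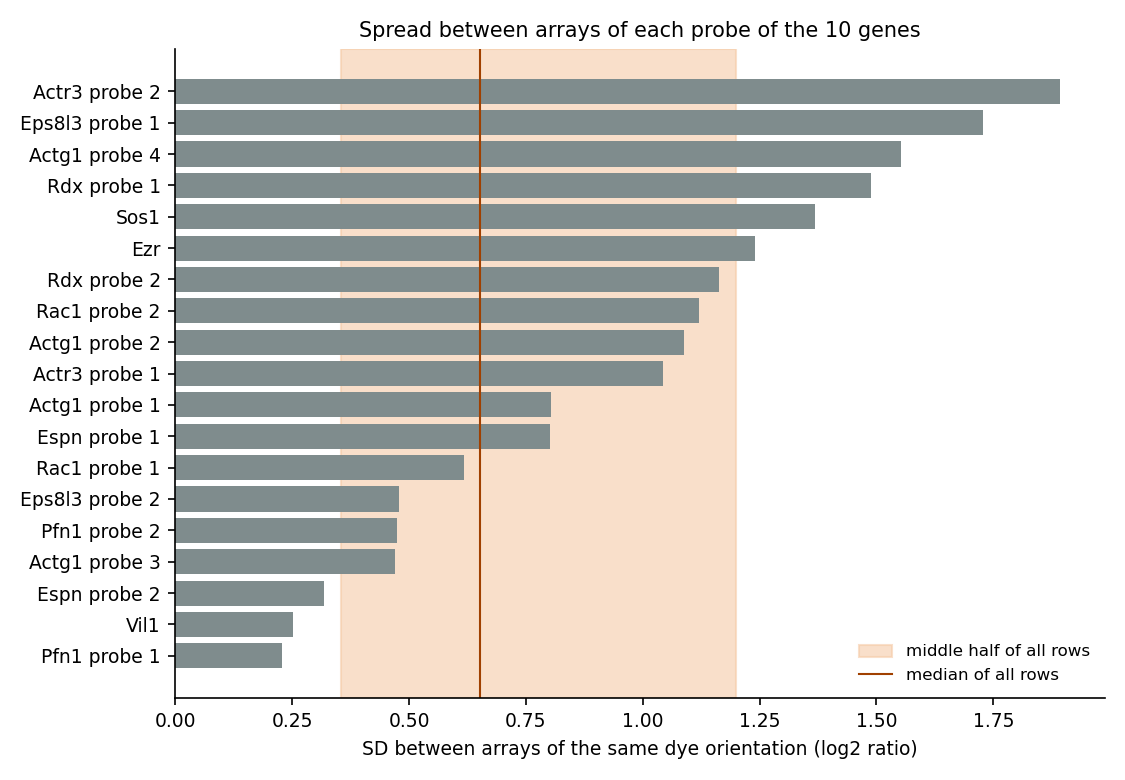
SD of the log2 ratio over arrays of the same dye (horizontal axis) for each of the 19 probes as a bar (vertical axis), with the middle quartiles of all rows shaded and their median as a line. The median of the 19 probes is 1.04 and that of all rows 0.65, and probe 1 of Pfn1 and the probe of Vil1 lie at the quiet end.

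Other genes of the same pathways were read from lists written for these roles, with the genes above included. In none of 7 lists did a gene pass the adjusted threshold. Over all features, 2.15% were higher and 3.09% lower when p was not adjusted, which is the background for the counts that follow. Of the Eps8 family and its complex partners 11 genes were tested, of which 0 passed that threshold in either direction (median 0.12). Dvl1, a signalling protein that binds Eps8, had a mean of 0.48 ± 1.30 (SD, n = 4), and Egfr, whose kinase phosphorylates Eps8, had -0.12 ± 0.41 (SD, n = 4).

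Nearer to the filament, 0 of 4 actins passed either way, with Actc1 at -0.09 ± 0.13 and Actb at -0.07 ± 0.33 (SD, n = 4). Of 4 genes of the Arp2/3 complex 1 passed the unadjusted threshold: Arpc1a, a subunit of the complex, gave 0.77, 0.81, 0.22 and 1.43 in mice 1 to 4. It was above 0 in every mouse, with a mean of 0.81 ± 0.50 (SD, n = 4; limma, unadjusted p = 0.0201, adjusted p = 0.906). Cy5 arrays alone gave 0.25 (unadjusted p = 0.647), and without mouse 1 or mouse 2 the unadjusted p was 0.0618 or 0.0639. Without mouse 3 or mouse 4 it was 0.0136 or 0.0428. Mice measured in both dyes gave a mean of 1.003 (limma, unadjusted p = 0.0084, adjusted p = 0.685). Arpc5l, a subunit of the same complex with 4 probes, had -0.05 ± 0.22 (SD, n = 4). None of 9 WAVE and WASP genes passed, with a median of -0.06, and Wasf3 had 0.17 ± 0.18 and Wipf1 -0.64 ± 1.37 (SD, n = 4).

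At the membrane, 1 of 12 ERM genes and partners was lower at the unadjusted threshold. Stk10, a kinase that phosphorylates ERM proteins, gave -0.05, -0.85, -1.77 and -1.33, a mean of -1.0 ± 0.74 (SD, n = 4; limma, unadjusted p = 0.0306, adjusted p = 0.906). From mice measured in both dyes its mean was -0.05, so the low values rested on single arrays. Its unadjusted p (limma) was 0.0748, 0.0902 and 0.105 without mouse 2, 3 or 4, and 0.0088 without mouse 1. Slc9a3r1, the scaffold known as EBP50 that ezrin binds, had 0.28 ± 0.33 (SD, n = 4). Of 13 microvillus bundlers, motors and brush border genes 1 was higher: Fscn1, the bundler fascin, gave 0.43, 0.38, 0.39 and 0.68 in mice 1 to 4. The mean was 0.47 ± 0.14 (SD, n = 4; limma, unadjusted p = 0.0136, adjusted p = 0.848), and every mouse was above 0. Without mouse 1 the unadjusted p of Fscn1 (limma) was 0.0509, and without mouse 2, 3 or 4 it was 0.039, 0.043 and 0.034. Mouse 4, the highest, had the Cy3 array alone, and mice measured in both dyes gave a mean of 0.40. Cy3 arrays alone gave 1.07, so the Cy5 arrays lay lower, with their mean on the other side of 0. Krt18, a keratin of hepatocytes and bile duct cells, was below 0 in every mouse at -0.42 ± 0.36 (SD, n = 4; limma, unadjusted p = 0.0745).

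Among 21 genes that bind monomers or cap, sever, coat or extend filaments, 1 was higher and 0 lower, with a median of -0.05. Tpm4, a tropomyosin that coats filaments, gave 0.41, 0.69, 0.83 and 1.47 in mice 1 to 4. It was above 0 in every mouse, with a mean of 0.85 ± 0.45 (SD, n = 4; limma, unadjusted p = 0.0128, adjusted p = 0.848). The dyes differed here too, with 0.06 from Cy5 arrays alone (unadjusted p = 0.75) and 1.74 from Cy3 arrays alone (unadjusted p = 0.0019). With a mouse left out the unadjusted p of Tpm4 (limma) ran from 0.0174 (without mouse 1) to 0.0455 (without mouse 3). The fit with a dye term, which took arrays as almost independent, gave 0.90 (unadjusted p = 0.00069, adjusted p = 0.141). Gsn, gelsolin, which severs and caps filaments, was below 0 in every mouse at -0.63 ± 0.66 (SD, n = 4; limma, unadjusted p = 0.0879), but gave -2.71 from Cy5 arrays alone and 1.45 from Cy3 arrays alone. Twf2, named because it had the lowest mean of these lists, had -4.41 ± 8.14 (SD, n = 4), from a value of -16.6 in mouse 4, and -0.36 without that mouse.

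**Figure D5:**
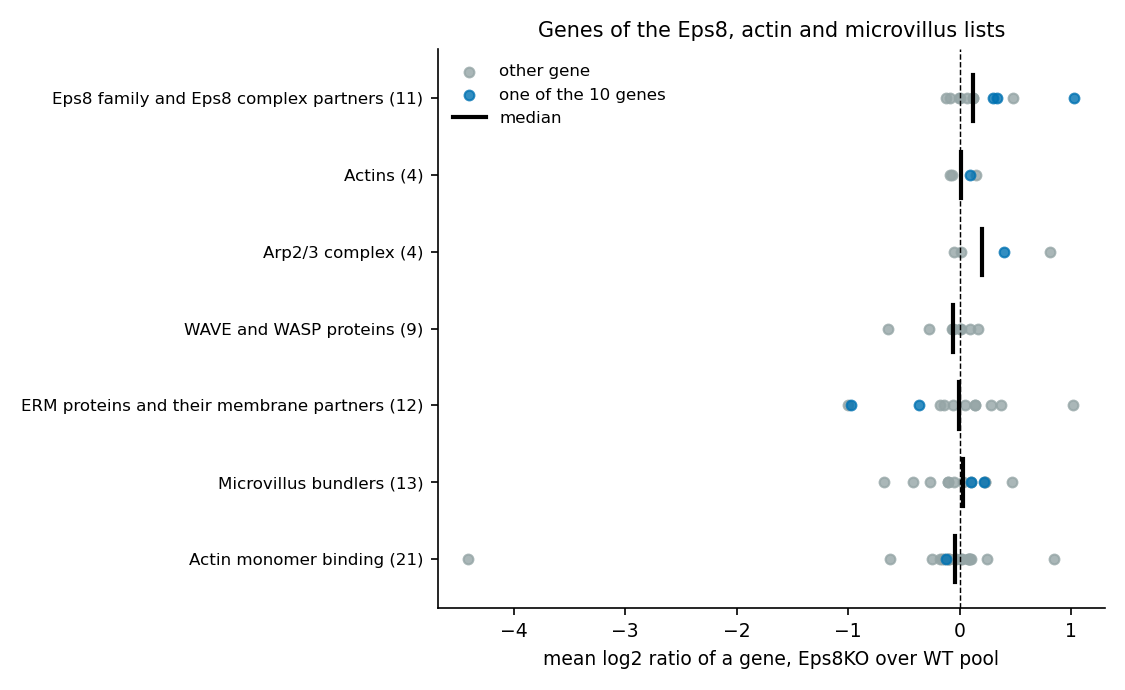
Mean log2 ratio of Eps8KO over the WT pool (horizontal axis) of every tested gene in each of 7 lists (vertical axis), with the 10 genes marked and a line at each median. The medians lie between -0.06 and 0.20, and Arpc1a, Fscn1, Tpm4 and Stk10 are the genes past an unadjusted p under 0.05.

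The labelled tissue was read from markers of the cells that liver could hold. Of 7 measured hepatocyte markers 2 were higher at the unadjusted threshold (median 0.19), and of 5 cholangiocyte markers 1 was lower (median -0.05, from -1.51 to 0.14). Endothelial markers had a median of -0.28 over 6 genes and lymphocyte markers 0.22 over 7, with 0 past the threshold in either. Over the other 6 lists, of macrophages, stellate cells, red blood cells, enterocytes, pancreatic acini and skeletal muscle, medians ran from -0.17 (acini) to 0.13 (muscle), each of which held 1 lower gene. Since ratios give no level, whether a marker was present in both RNAs could not be read, and the part of these shifts in the values of Ezr, Vil1 and Rdx was not tested. In whole liver, fewer cells of a type and less RNA per cell cannot be told apart.

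By root mean square difference over 4 mice, the genes nearest to Eps8l3 among 8213 others were Poli (0.0731), Plekhf2 (0.0988) and Kctd9 (0.123). Each had 1 high mouse, mouse 2, at 1.22, 1.23 and 1.32. Sos1 was taken as the gene whose mean lay farthest from 0 in either direction, which held for all values but not for mice measured in both dyes, where Sos1 had 0.06 and Rac1 lay farthest at 0.33. Those nearest to Sos1 were Tbc1d22a (0.261), Dpagt1 (0.322) and Slc19a1 (0.366), all at over 3 in mouse 1, with 3.98, 3.52 and 3.62.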

How the data were processed

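Deposited log2 ratios of 8 cDNA arrays (4 Eps8KO mice, each in both dye orientations against the WT pool) were used. The methods state total intensity normalisation in MIDAS to a mean log2 ratio of 0, a background check in both channels and a flip dye consistency check, but not at which of these steps the table was taken. Array means lay between -0.39 and -0.18, and intensities were not analysed here, so precision is limited by the 8 arrays, which held 17968 to 18802 values each.

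Rows were named through the platform table, in which 12398 probes have 1 symbol, by gene ID with RefSeq (GRCm38.p6). Probe numbers were shifted by 32 against row numbers, which named 12367 rows. This shift was found from the values and rests on them: for 114 probes of liver and housekeeping genes, none of the 10 genes among them, 0 of 2000 other shifts gave as low a noise, and 1 of 2000 as few ratios of small whole numbers. If it were wrong, the names would be wrong.

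Ratios of the Cy3-labelled Eps8KO samples were multiplied by -1. Arrays of a mouse, then probes of a gene, were averaged. For each feature present in every mouse, limma 3.58.1 tested the mean against 0 (R 4.3.3; lmFit, eBayes, two-sided, Benjamini-Hochberg), without the WT spread. The mice are separate animals. Before averaging and before turning, r was 0.0684 to 0.14 between both arrays of 1 mouse, and 0.0818 to 0.204 between same-dye arrays of different mice. Since the arrays of 1 mouse had opposite dyes, a shared Eps8KO difference would make the first r negative. Its positive values mean that, after turning, the arrays of a mouse were weakly opposed, so they do not show the same direction. Named genes are the 10 genes, the 2 others of each list with the smallest p, and the 3 nearest to Eps8l3 and Sos1. Eps8l2 and Twf2 were added. 1 list of genes is not reported here. The genes and lists were chosen with earlier results of these data known. Scripts were tested on simulated data. Python 3.11.15, NumPy 2.4.6, pandas 2.3.3 and Matplotlib 3.10.9 were used.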

Additional observations from a re-analysis of the deposited data

Results flagged for a closer look

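Among 44 sets of 4 mice checked, 3 held a mouse far from the others. By chance the rule passes about 1 in 20 independent sets, but the count cannot be set against that rate. The sets held genes together with their own probes, and Twf2 was named for a low mean that came from the same mouse. Mouse 2 of Eps8l3 lay at 1.33, with a gap to the next mouse of 0.89 of the range. Mouse 1 of Sos1 lay at 3.94, with a gap of 0.967 of the range, from 1 array. Mouse 4 of Twf2 lay at -16.6, with a gap of 0.877 of the range, at the limit of its array.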

How the results depend on the processing

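For the 10 genes, none passed an adjusted p under 0.05 in the 170 values that the alternatives gave. Their adjusted p ran from 0.126 to 0.997. No value could be had with the flip dye filter for Sos1, Rac1, Ezr and Rdx, with 8 complete arrays or the dye term for Sos1 and Ezr, with Cy5 alone for Sos1 and with Cy3 alone for Ezr. Tried were a median of 0 for every array, features complete on 8 arrays or in 3 mice, dropping mice whose dyes differed by over 2 (the flip dye filter), arrays of 1 dye, a dye term with the mouse as a block, 1 feature per probe, the median of probes, no moderation, a robust prior, limit values left out, each mouse left out, and, chosen after seeing the data, mice with both dyes only and small-number ratios left out. In each case the cause was not tested.

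Directions turned as follows. With the flip dye filter Eps8l3 was -0.0038 and Eps8l2 -0.041. With Cy5 arrays alone Eps8l3 was -0.088, Actr3 -1.30, Pfn1 0.55, Vil1 -0.14, Dvl1 -0.90, Egfr 0.063, Actc1 0.73, Actb 0.56, Wasf3 -0.065, Slc9a3r1 -0.58 and Eps8l2 -0.095. With Cy3 arrays alone Rdx was 0.19, Arpc5l 0.20, Stk10 0.10 and Gsn 1.45. With 1 feature per probe Rdx was 0.090, and with the median of probes Egfr was 0.022 and Arpc5l 0.0053. With a mouse left out, Eps8l3 ran from -0.047 to 0.44, Arpc5l from -0.14 to 0.0185, Eps8l2 from -0.092 to 0.38, Dvl1 from -0.15 to 0.78, Actb from -0.21 to 0.05 and Egfr from -0.26 to 0.067.

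Features called at an adjusted p numbered 0 higher and 0 lower with limma, and 333 and 478 at an unadjusted p under 0.05. On all 8 arrays 8 were lower, with the flip dye filter 3, with both dyes only 5, with Cy3 alone 3 higher and 8 lower. The dye term with the mouse as a random replicate block, meant for the pairing of the arrays of a mouse, gave 5 higher and 30 lower. It gave 78 and 129 at 1.6-fold with an unadjusted p under 0.05. Of the 8 genes it could test, 1 (Rac1) had an unadjusted p under 0.05, where 6.63% of all features did. Its correlation between the arrays of a mouse was -0.00244, so it took the 8 arrays as almost independent, and its counts do not rest on 4 mice as replicates. At 1.6-fold with an unadjusted p under 0.05, 164 were higher and 243 lower, against 83 and 143 on all 8 arrays, 54 and 101 with the flip dye filter, 222 and 1350 with Cy5 alone, 1487 and 466 with Cy3 alone, 81 and 133 without moderation, and 219 to 253 higher and 239 to 334 lower with a mouse left out. Of the 10 genes, 1 reached an unadjusted p under 0.05 on all 8 arrays and 2 did without moderation. With a mouse left out it was 0 to 1 (Actr3 without mouse 1, 0.66). With 1 dye alone 9 genes could be tested, of which 2 passed with Cy5 and 4 with Cy3. Both that passed with Cy5, Actr3 (-1.30) and Pfn1 (0.55), passed again with Cy3 in the opposite direction (1.71 and -0.80). The share of all features at this threshold was not counted in these settings, so the counts have no background.

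List medians moved for the Eps8 family to -0.041 with the flip dye filter, -0.092 with Cy5 alone, 0.29 with Cy3 alone and -0.0097 to 0.089 with a mouse left out. Actins gave 0.36 with Cy5 and -0.33 with Cy3, ERM genes -0.30 with Cy5, WAVE and WASP genes 0.11 with Cy3, and monomer and capping genes 0.012 with the flip dye filter and 0.036 with Cy3.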
